A study of Sus scrofa with 2 samples.

Results

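The smooth muscle contractile genes ACTA2, TAGLN, MYL9, CNN1, TPM1, TPM2 and ACTG2 were followed through cultured porcine adipose-derived stem cells (ADSCs). They are 7 of the 28155 genes in the deposited tables, chosen by symbol, and all 7 were found. ADSCs are progenitors with the look of fibroblasts, grown from dissociated fat. These came from chest adipose tissue of healthy Bama miniature pigs, were carried through 3 passages and were profiled by droplet single-cell RNA sequencing. The labels give 1 group of 2 libraries, called library 1 and library 2 here, with no treatment and no animal age, and leave unsaid whether these were separate animals or cultures. The p-values below therefore measure only the spread between these libraries, which may be technical.

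In smooth muscle, force comes from myosin sliding along actin filaments, and the 7 genes encode parts of that machine. ACTA2 and ACTG2 are the smooth muscle alpha and gamma actins, TPM1 and TPM2 are tropomyosins that lie along the actin filament, and MYL9 is the regulatory light chain whose phosphorylation switches myosin on. TAGLN (transgelin, or SM22) and CNN1 (calponin) bind actin and the actomyosin complex. Outside muscle, fibroblasts that become myofibroblasts in a wound or a scar, and pericytes around small vessels, also express several of them, and ACTA2 is the usual marker of a myofibroblast. Transcription of most of the group depends on serum response factor (SRF) and its cofactors of the myocardin family, and can be raised by TGF-beta.

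In the RefSeq annotation of the files' genome build, Sscrofa11.1, all 7 genes had an entry. TPM1 lies on chromosome 1 from 108986981 to 109016090 and TPM2 on the same chromosome from 236402249 to 236410390. CNN1 lies on chromosome 2 from 70183370 to 70190756, ACTG2 on chromosome 3 from 69097366 to 69121542, and TAGLN on chromosome 9 from 44561756 to 44567385. ACTA2 lies on chromosome 14 from 100868145 to 100886732 and MYL9 on chromosome 17 from 39788165 to 39795240. The actins are near-identical in their coding sequence. Counting at the 3' end of transcripts reads mostly less conserved sequence, but the sources used here do not say how shared reads were assigned, so ACTG2 in particular, the sparser actin, is uncertain.

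A barcode was kept as a cell with at least 1000 genes, which left 10559 cells in library 1 (median 19845 UMIs per cell) and 11984 in library 2 (median 19652 UMIs). A UMI, or unique molecular identifier, marks 1 captured RNA molecule. The kept cells of the 2 libraries shared 35 barcode sequences. The cells matched their label by markers: in both libraries 9 of 10 stromal markers were at 10 CPM (counts scaled to a total of 1e+06 UMIs) or more, among them VIM, COL1A2 and PDGFRA. The skeletal muscle regulators MYOD1, MYOG and MYF5 had 0 UMIs in both libraries. Of the 14 skeletal and cardiac muscle genes found, 12 were under 1 CPM and 0 reached 10 CPM in each library. Their sum was 11.1 CPM in library 1 and 9.50 CPM in library 2. Of 6 endothelial, 7 immune and 5 epithelial markers, 1 of each list reached 10 CPM in each library. Of 6 mature adipocyte markers 0 did. Some smooth muscle and pericyte markers were close to 0. DES had 0.172 and 0.192 CPM in library 1 and library 2, and RGS5 had 0.119 and 0.0693 CPM. MYH11, the smooth muscle myosin heavy chain, had 1.75 and 0.876 CPM. Others were not low: 14 of 24 other smooth muscle genes were at 10 CPM or more in both libraries. Of 12 pericyte and mural cell genes, 3 in library 1 and 4 in library 2 were. No cell population that should lack the contractile genes was identified, so no background level from free RNA could be set for the shares of cells given below. In the barcodes under 1000 genes, which were not kept, ACTA2 stood at 93.3 CPM (95% exact Poisson interval 79.6 to 109) in library 1 and 229 CPM (199 to 263) in library 2.

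Over all kept cells, 5 of the 7 genes exceeded 50 CPM in both libraries and the other two, ACTG2 and CNN1, stayed under 10 CPM. CPM values are per captured molecule, are not scaled to transcript length, and their exact Poisson intervals cover counting error only. ACTA2 had 70.8 CPM in library 1 (69.6 to 71.9) and 117 CPM in library 2 (115 to 118). TAGLN had 227 and 275 CPM in library 1 and library 2, and MYL9 had 72.1 and 80.4 CPM. TPM1 had 351 and 453 CPM, and TPM2 had 343 and 330.3 CPM. ACTG2 had 2.10 CPM in library 1 (1.91 to 2.30) and 5.83 CPM in library 2 (5.53 to 6.14), and CNN1 had 0.839 CPM (0.720 to 0.973) and 0.848 CPM (0.736 to 0.971). Of the 7 genes, 6 were lower in library 1 and TPM2 was higher there, by 0.05 on the log2 scale. With a single library on each side there is no replicate check of these differences. Among the 8042 genes averaging at least 10 CPM, 3.16% differed at least 2-fold between the libraries, and none of the 5 contractile genes in that range did. ACTA2 came closest, at -0.72 on the log2 scale for library 1 over library 2. ACTG2, below that range, differed by -1.47.

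The genes were distributed over the cells in very different ways. To compare cells at equal depth, 5000 UMIs were drawn at random from each cell, which 9581 cells of library 1 and 11598 of library 2 allowed and 978 and 386 were too shallow for. After thinning, a TPM1 UMI was found in 63.0% of the cells of library 1 (95% exact binomial interval 62.0 to 64.0), and a TPM2 UMI in 59.0%. An ACTA2 UMI was found in 9.37% of the cells of library 1 (8.80 to 9.97) and 11.3% of those of library 2 (10.7 to 11.8). Without thinning the ACTA2 shares were 16.1% and 19.5%, so the share depends on depth. Single cells held from 0 up to 49 ACTA2 UMIs of 5000 in library 1 and up to 58 in library 2.

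ACTA2 was among the most unevenly spread genes measured. In non-cycling cells, those with no UMI of 15 core cycle genes, its overdispersion, the excess of the variance over Poisson counting noise divided by the squared mean, was 16.5 in library 1 and 15.2 in library 2, against medians over genes of 0.205 and 0.160. That placed ACTA2 at rank 2 of 5658 and of 5741 genes averaging 0.1 UMI or more. The 10% of non-cycling cells with the most ACTA2 held 95.5% of all ACTA2 UMIs in library 1 and 92.8% in library 2, where the median gene had 54.4% and 53.8%. TAGLN and MYL9 were also more uneven than most genes, with overdispersion of 3.28 and 2.18 in library 1, and 3.18 and 2.26 in library 2. TPM1 and TPM2 were closer to the median gene, at 1.39 and 1.38 in library 1 and 1.47 and 1.37 in library 2, and still above 94.6% and 94.5% of genes in library 1. The top 10% of cells held 59.1% of TAGLN UMIs and 41.9% of TPM1 UMIs in library 1. ACTG2 and CNN1 were too sparse at 5000 UMIs to be placed in this ranking, and no share of theirs in the top 10% of cells is read.

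Cell cycle classes were set from 15 core cycle genes, among them MKI67, TOP2A and CDK1. A cell with UMIs of at least 3 of the 15 was called cycling, a cell with none was called non-cycling, and cells with 1 or 2 form a class between them. Library 1 held 3831 cycling cells (40.0%) and 1855 non-cycling cells (19.4%), and library 2 held 4612 (39.8%) and 2508 (21.6%). The classes are ranges of a score, not cell types: 7.20% of the cells of library 1 and 6.77% of those of library 2 had exactly 3 core genes, the fewest for a cycling cell. The shares also depend on depth. Classed at 10000 UMIs, 53.5% and 52.0% of cells were cycling and 7.64% and 9.34% non-cycling in library 1 and library 2. Non-cycling thus means that no core gene was detected at the depth used, not that a cell had left the cycle. Median depth was 22744 UMIs in cycling and 19518 UMIs in non-cycling cells of library 1, and 20742 and 19902 UMIs in library 2. None of the 7 contractile genes was used to set the classes.

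All 7 contractile genes were lower in cycling than in non-cycling cells, in both libraries. ACTA2 had 40.5 and 70.6 CPM in the cycling cells of library 1 and library 2, against 139 and 202 CPM in the non-cycling cells. TAGLN had 149 and 167 CPM in cycling cells, against 347 and 457 CPM in non-cycling cells. MYL9 had 55.1 and 55.7 CPM in cycling cells, against 102 and 121 CPM in non-cycling cells. For each of these genes both cycling values lay below both non-cycling values, although ACTA2 differed more between the libraries than MYL9 did. The share of all genes separated in this way was not taken.

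Both tropomyosins were lower in cycling cells too. TPM1 had 263 and 322 CPM in the cycling cells of library 1 and library 2, against 473 and 686 CPM in the non-cycling cells. TPM2 had 274 and 260.3 CPM in cycling cells, against 443 and 428 CPM in non-cycling cells. Again neither pair of values overlapped, and TPM2 varied little between the libraries in either class. Here too the share of all genes with such a separation was not taken.

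The remaining pair was measured on few molecules. ACTG2 had 1.74 and 3.999 CPM in the cycling cells of library 1 and library 2, against 3.31 and 9.66 CPM in the non-cycling cells. CNN1 had 0.732 and 0.665 CPM in cycling cells, on 67 and 70 UMIs, against 1.17 and 1.02 CPM in non-cycling cells, on 43 and 51 UMIs. The Poisson intervals of CNN1 in cycling cells, 0.567 to 0.929 CPM in library 1 and 0.518 to 0.840 CPM in library 2, overlapped those in non-cycling cells, 0.845 to 1.57 CPM and 0.758 to 1.34 CPM. Summed over the 7 genes, the level was 784 and 881 CPM in cycling cells, against 1508 and 1904 CPM in non-cycling cells of library 1 and library 2.

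The differences were tested with edgeR's quasi-likelihood test on counts summed per library and class, with the library as a block, since both classes came from the same libraries. A call needed a p under 0.05 after Benjamini-Hochberg adjustment over all 17019 genes tested, a change of 0.5 or more on the log2 scale, and libraries that moved the same way. All 7 genes fell in cycling cells by this rule, where 9.87% of all genes tested fell and 8.65% rose. Their median log2 fold change was -1.06, against -0.01 over all genes. ACTA2 fell by 1.70 ± 0.06 on the log2 scale (SE; 95% interval -1.81 to -1.59), TAGLN by 1.40 ± 0.05 and ACTG2 by 1.21 ± 0.12. MYL9 fell by 1.06 ± 0.06, TPM1 by 1.03 ± 0.05 and TPM2 by 0.76 ± 0.05. CNN1 fell by 0.70 ± 0.25, with an adjusted p of 0.0143 in edgeR, the highest of the 7. With 1 residual degree of freedom the fit pools the spread over genes. The very small p-values of the others, and the standard errors and the interval, rest on that pooling. For ACTA2 the log2 ratios of CPM, which lack the scaling used in the fit, were -1.78 in library 1 and -1.51 in library 2. The library 2 value lies outside the 95% interval of the fit. So do the library 1 ratios of TAGLN (-1.22, interval -1.50 to -1.29) and MYL9 (-0.88, interval -1.17 to -0.95). Those of TPM1 (-0.85, interval -1.13 to -0.93) and ACTG2 (-0.93, interval -1.46 to -0.97) in library 1 lie outside too. Without the replicate block only TPM2 passed (adjusted p = 0.0338). Then ACTA2 had an adjusted p of 0.145, TAGLN 0.0597, MYL9 0.0552, TPM1 0.155, ACTG2 0.486 and CNN1 0.303 in edgeR. CNN1 also failed with DESeq2 (adjusted p = 0.352) and on thinned counts (adjusted p = 0.0757).

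**Figure D1:**
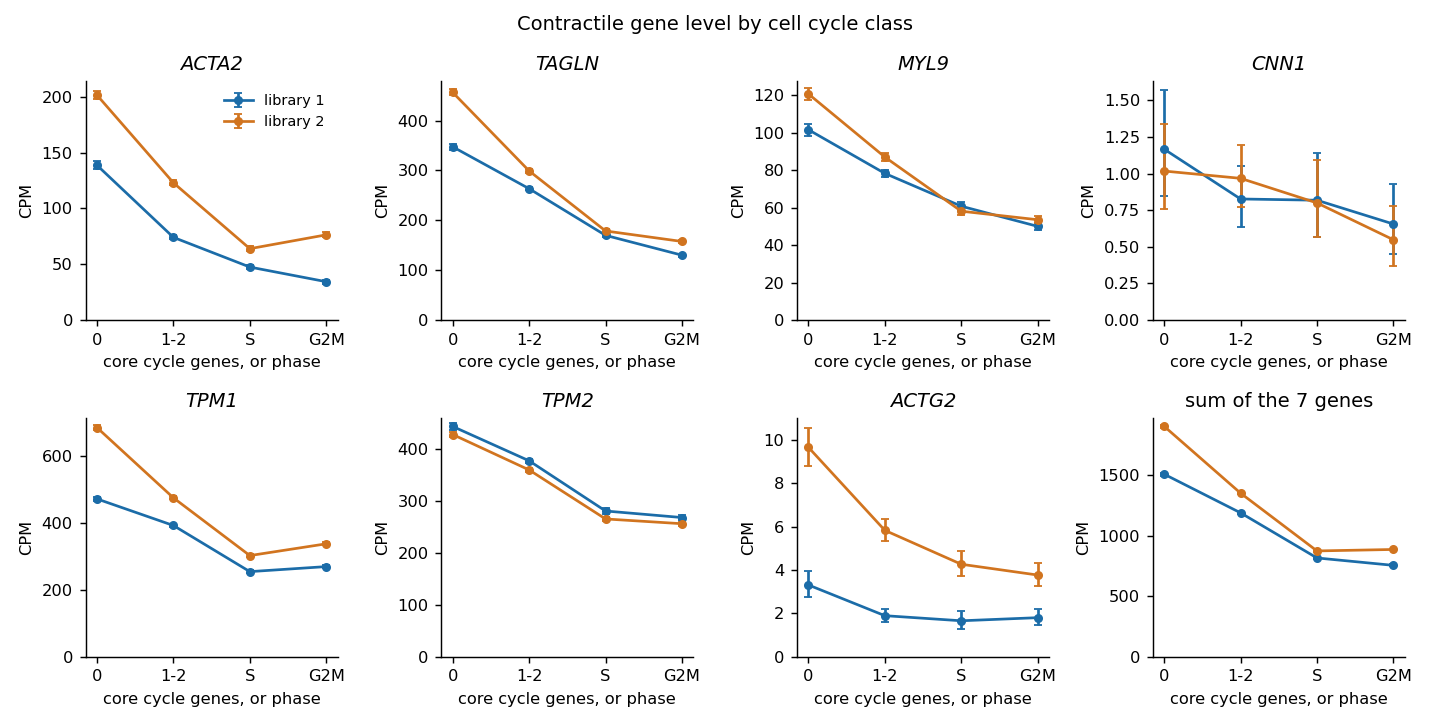
Level of each contractile gene and of their sum (y axis, CPM, from 0) in cells with 0 or 1 to 2 core cycle genes and in cycling cells split into S and G2M (x axis), for library 1 (blue) and library 2 (orange). Points are levels of cells summed per library and bars are 95% Poisson intervals. In both libraries the highest level of every gene is in cells with no core cycle gene, and ACTA2 reaches 34.4 CPM in the G2M cells of library 1 and 76.4 CPM in those of library 2.

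The fall was graded along the number of core cycle genes. For ACTA2 in library 1, cells with 0, 1 and 2 core genes had 139, 89.6 and 46.7 CPM, and cells with 3 to 5, 6 to 8 and 9 to 15 had 49.8, 42.0 and 27.5 CPM. In library 2 the same bins had 202, 142, 86.4, 70.2, 74.9 and 66.9 CPM. Most of the difference therefore lay between 0 and 3 core genes in both libraries, and beyond that only library 1 continued clearly downward. TAGLN took a like course, with 347, 293, 211, 173, 156 and 111 CPM in library 1 and 457, 321, 257, 176, 182 and 142 CPM in library 2. TPM2 had 443, 399, 339, 278, 289.6 and 253 CPM in library 1, a shallower course.

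Cycling cells were split by whether S phase or G2 and M phase genes weighed more in them, giving 1777 S and 2054 G2M cells in library 1 and 2126 and 2486 in library 2. In S cells 6 of 7 contractile genes fell against non-cycling cells, where 8.44% of all genes tested did. CNN1 was the one that did not pass, at -0.50 ± 0.24 (adjusted p = 0.115 in edgeR). In G2M cells all 7 fell, where 11.1% of all genes did. ACTA2 had log2 fold changes of -1.68 ± 0.21 in S cells and -1.72 ± 0.21 in G2M cells, and TAGLN had -1.27 ± 0.09 and -1.53 ± 0.09. MYL9 had -0.98 ± 0.08 in S cells and -1.15 ± 0.08 in G2M cells, and TPM1 had -1.11 ± 0.09 and -0.97 ± 0.09. TPM2 had -0.75 ± 0.04 and -0.79 ± 0.04, and ACTG2 had -1.21 ± 0.14 and -1.26 ± 0.14. CNN1 had -0.91 ± 0.25 in G2M cells (adjusted p = 0.00767 in edgeR), a call that was lost with DESeq2 (adjusted p = 0.0585). Without the replicate block 4 of 7 genes passed in S cells and 3 of 7 in G2M cells.

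Between the phases none of the 7 genes was called by edgeR, where 3.17% of all genes were, and DESeq2 called none either. The smallest adjusted p in edgeR was 0.135, for TAGLN, whose level was 0.26 ± 0.09 lower in G2M than in S cells on the log2 scale. At an unadjusted p under 0.05 TAGLN was the only one of the 7 in edgeR, and DESeq2 had 3 of 7. ACTA2 went opposite ways in the libraries: it had 34.4 CPM in G2M and 47.5 CPM in S cells of library 1, and 76.4 and 64.0 CPM in G2M and S cells of library 2. Its fitted difference of -0.04 on the log2 scale had a 95% interval of -0.69 to 0.60, which spans sizable differences either way. TPM1 was the only gene of the 7 higher in G2M cells in the fit, by 0.14 ± 0.09, and did not pass. S and G2M are not sharply separated classes: 19.6% and 17.5% of cycling cells in library 1 and library 2 lay within 1.2-fold of the dividing line.

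Both the share of cells with a UMI and the number of UMIs in those cells were lower in cycling cells. At 5000 UMIs per cell, ACTA2 was found in 7.20% of cycling cells (6.41 to 8.07) and 13.2% of non-cycling cells (11.7 to 14.8) of library 1. In library 2 it was found in 8.98% of cycling cells (8.17 to 9.84) and 15.8% of non-cycling cells (14.4 to 17.3). Unthinned, the shares were 14.5% and 17.2% of cycling cells, against 19.4% and 24.9% of non-cycling cells of library 1 and library 2. Cells with ACTA2 held on average 2.84 and 3.74 ACTA2 UMIs when cycling, against 5.33 and 5.56 when non-cycling, in library 1 and library 2. Cells with at least 5 ACTA2 UMIs made up 1.17% and 2.08% of cycling cells, against 5.55% and 5.58% of non-cycling cells. The intervals are exact binomial ones over cells, and cover counting error only.

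The same held for the more widely detected genes. TAGLN was found in 31.5% and 30.9% of cycling cells, against 42.9% and 47.6% of non-cycling cells of library 1 and library 2, and the mean in those cells was 2.35 and 2.42 UMIs against 3.93 and 4.26. TPM1 was found in 57.8% and 58.3% of cycling cells, against 69.2% and 74.8% of non-cycling cells. TPM2 was found in 55.4% and 54.3% of cycling cells, against 62.2% and 59.97% of non-cycling cells. For TPM2 the share of cells differed least, while the mean in cells with TPM2 was 2.39 and 2.25 UMIs when cycling and 3.53 and 3.21 when non-cycling. MYL9 was found in 19.5% and 19.0% of cycling cells, against 30.4% and 30.3% of non-cycling cells.

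Few cycling cells were found at the upper end of the distribution. A limit was set in each library at the top 10% of its non-cycling cells. It was at least 20 UMIs of the 7 genes together in library 1 and at least 22 in library 2. In library 1 it was reached by 2.35% of cycling cells (1.89 to 2.88) and 9.43% of non-cycling cells. In library 2 it was reached by 2.30% of cycling cells (1.89 to 2.77) and 9.93% of non-cycling cells. The limit itself fixes the non-cycling shares near 10%, so they carry no interval. Cells with 1 or 2 core genes lay between, at 5.88% and 5.29%. A cell held UMIs of a median of 2 of the 7 genes in both classes, and cells with none of the 7 made up 15.9% and 15.9% of cycling cells, against 10.7% and 9.13% of non-cycling cells of library 1 and library 2.

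**Figure D2:**
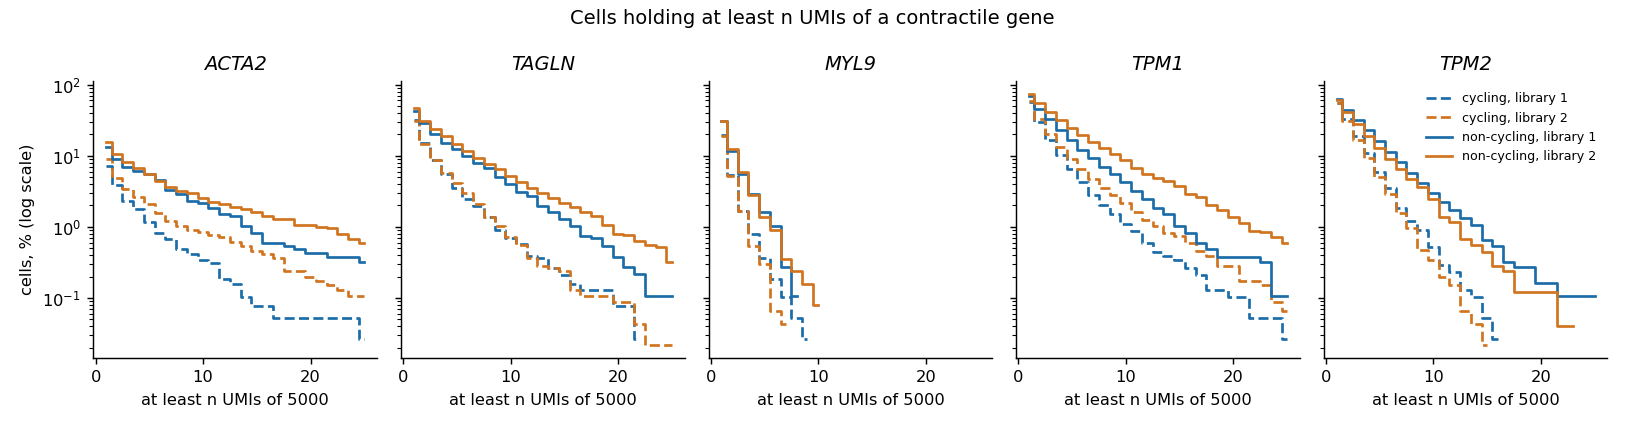
Share of cells (y axis, percent, log scale) holding at least n UMIs (x axis) of 5 contractile genes after thinning to 5000 UMIs, for cycling cells (dashed) and non-cycling cells (solid) of library 1 (blue) and library 2 (orange). At 5 UMIs of ACTA2 the cycling curves stand at 1.17% and 2.08% and the non-cycling curves at 5.55% and 5.58%.

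Cycling cells were deeper than non-cycling cells, so the ratio of means at 5000 UMIs was also taken within 4 bands of cell depth, set from the non-cycling cells. It was below 1 in each of the 4 bands, in both libraries, for each of the 5 genes over 50 CPM. For the sparse pair it was not: CNN1 had ratios of 1.29 and 1.72 in bands 2 and 3 of library 1 and 1.42 in band 2 of library 2, and ACTG2 had 1.72 in band 2 of library 1 (bands counted from the shallowest), on means of at most 0.0111 UMIs per cell in those bands. For ACTA2 the ratio of cycling over non-cycling was 0.290 in library 1 over all depths, with 0.238 to 0.328 across the bands, and 0.381 in library 2, with 0.274 to 0.5002. For TAGLN it was 0.440 (0.417 to 0.461) and 0.369 (0.306 to 0.395), and for TPM2 0.602 (0.566 to 0.648) and 0.635 (0.545 to 0.697). Over all cells the summed contractile UMIs were only weakly related to the depth of the cell (Pearson's r of -0.04 over 9581 cells of library 1 and 0.08 over 11598 cells of library 2) and to the mitochondrial RNA share (-0.03 and -0.08), while r with the number of core cycle genes was -0.18 in both. Within non-cycling cells r with depth was 0.03 in library 1 and 0.11 in library 2. Non-cycling cells in the deepest band of library 2 averaged 1.47 ACTA2 and 3.07 TAGLN UMIs of 5000. In its shallower bands they averaged 0.56 to 0.75 ACTA2 and 1.51 to 1.87 TAGLN UMIs. Library 1 had 0.64 to 0.79 and 1.48 to 1.88 across its bands. These are descriptions over cells that share a library.

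Within non-cycling cells the 5 contractile genes over 50 CPM were positively but partly correlated from cell to cell. Correlations were taken per library over log(1 + UMIs) at 5000 UMIs, and cells of 1 library share their preparation and depth, so they carry no p-value. ACTA2 and TAGLN had a Pearson's r of 0.59 over the 1855 non-cycling cells of library 1 and 0.60 over the 2508 of library 2. TAGLN and MYL9 had 0.56 and 0.59, TAGLN and TPM1 had 0.54 and 0.54, and ACTA2 and MYL9 had 0.48 and 0.50. Of the 10 pairs among the 5 genes over 50 CPM the lowest had 0.28 and 0.29, and the median was 0.41 and 0.43. Over all genes averaging 0.1 UMI or more, the median correlation with any of these 5 genes was between -0.01 and 0.00 in both libraries, and the 95th percentile for TAGLN was 0.07 in both.

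TAGLN stood closest to the rest of the group. Its r with the summed UMIs of the other 6 genes was 0.63 and 0.65 in library 1 and library 2, the highest of the 7 in both, and TPM2 had the lowest of the 5 genes over 50 CPM, at 0.38 and 0.38. ACTG2 had 0.12 and 0.23 and CNN1 0.08 and 0.10, values on so few UMIs that they are not read.

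Cells rich in ACTA2 show what these correlations describe. Non-cycling cells with at least 5 ACTA2 UMIs, 103 in library 1 and 140 in library 2, held on average 9.77 and 11.11 TAGLN UMIs, against 0.932 and 1.11 in the cells with no ACTA2. They held 8.64 and 10.4 TPM1 UMIs, against 1.84 and 2.55, and 2.77 and 2.66 MYL9 UMIs, against 0.351 and 0.344. For TPM2 the gap was smaller, with 6.44 and 5.84 UMIs against 1.82 and 1.57. Cells with 1 to 4 ACTA2 UMIs, 142 and 257 in number, lay between, with 4.36 and 4.64 TAGLN UMIs, so the limit of 5 cuts a range and separates no class. TAGLN was found in 99.03% and 98.6% of the ACTA2-rich non-cycling cells, but also in 36.3% and 39.9% of those with no ACTA2. ACTG2 was found in 6.80% and 17.1% of the ACTA2-rich cells, against 0.373% and 0.663% of the cells with none. These shares rest on few UMIs, a mean of 0.097 and 0.414 per ACTA2-rich cell. How reads shared by the 2 actins were assigned is not known, so the shares are not read as co-expression.

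In cycling cells the pairs were less tightly correlated. The median over the 10 pairs was 0.31 in cycling and 0.41 in non-cycling cells of library 1, and 0.36 and 0.43 in library 2. At 5000 UMIs each of the 10 pairs was lower in cycling cells, in both libraries, and ACTA2 and TAGLN had 0.48 and 0.52. With cells thinned to 10000 UMIs, where fewer cells count as non-cycling, the gap was smaller in library 2, with medians of 0.44 in cycling and 0.46 in non-cycling cells, against 0.37 and 0.44 in library 1. There 9 of 10 pairs were lower in cycling cells of library 1, all but ACTA2 and TPM2 (0.264 in cycling and 0.263 in non-cycling cells), and 10 of 10 in library 2. The mean UMIs per cell were also lower in cycling cells, for ACTA2 0.205 and 0.335 against 0.705 and 0.880 in library 1 and library 2, and at lower counts sampling noise lowers a correlation. Its part in the difference was not tested. Cells with at least 5 ACTA2 UMIs numbered 45 and 96 among cycling cells of library 1 and library 2. They held on average 8.60 and 6.82 TAGLN UMIs, against 9.77 and 11.11 in their non-cycling counterparts, and 7.16 and 9.78 TPM1 UMIs, against 8.64 and 10.4. Both genes were thus lower in the cycling ones in both libraries, TAGLN by more in library 2, and these differences over few cells were not tested.

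**Figure D3:**
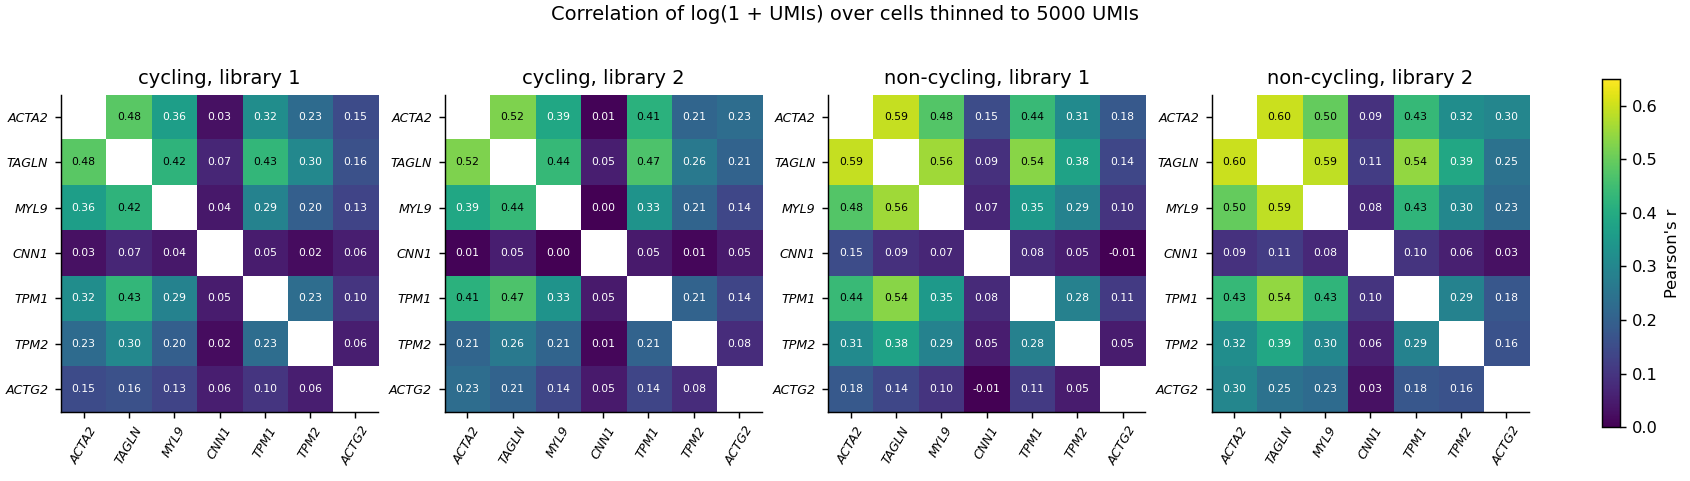
Pearson's r of log(1 + UMIs) between the 7 contractile genes (colour and printed value), over cycling cells (left pair of panels) and non-cycling cells (right pair) of library 1 and library 2. The block of ACTA2, TAGLN, MYL9 and TPM1 is bright in all panels, with 0.59 and 0.60 for ACTA2 and TAGLN in non-cycling cells, and the CNN1 and ACTG2 rows are dark.

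The genes whose pattern over non-cycling cells was most like the summed contractile genes were ranked by the lower of the 2 libraries' correlations, among 5294 genes averaging 0.1 UMI or more, whose median was -0.01 and 0.00. CALD1 (caldesmon, an actin-binding regulator of contraction) came first, with 0.46 in library 1 and 0.53 in library 2. BGN (biglycan, a matrix proteoglycan) had 0.36 and 0.40, and THBS1 (thrombospondin 1, a matrix protein that activates TGF-beta) had 0.34 and 0.48. CEMIP, a hyaluronan-degrading protein, SFRP2, a secreted modulator of Wnt signalling, CSRP1, a LIM protein of smooth muscle, MYL6, the myosin essential light chain, AGBL3 and CDC42EP3 also ranked near the top, with 0.25 to 0.34 in both libraries. The ranking depended on depth. With cells thinned to 10000 UMIs, PDLIM7, REXO2 and PAWR stood in the top 10 in place of SFRP2, AGBL3 and CDC42EP3.

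At the other end stood LGALS3 (galectin 3, a sugar-binding lectin), with -0.45 in both libraries, CAV1 (caveolin 1, the coat protein of caveolae) with -0.37 and -0.41, and POSTN (periostin, a matrix protein) with -0.37 and -0.36. RBP4 (a retinol carrier) and ANXA2 (a membrane-binding annexin) followed, with -0.32 and -0.33 for RBP4 and -0.33 and -0.31 for ANXA2. With cells thinned to 10000 UMIs, LGALS3 and CAV1 stayed lowest. PLPP3, S100A10 and HMGA1 then stood in the lowest 5 in place of POSTN, RBP4 and ANXA2. LGALS3 averaged 8.39 and 6.95 UMIs in the ACTA2-rich non-cycling cells, against 16.5 and 14.3 in the cells with no ACTA2, so it was lower but not absent. POSTN averaged 1.16 and 1.16 UMIs in the ACTA2-rich cells, against 3.56 and 3.56 in the cells with none. THBS1 went the opposite way (2.82 and 5.24 against 0.796 and 0.870). LGALS3, POSTN and THBS1 were named for their correlation with a sum that includes ACTA2, over the same cells. Their directions between ACTA2-rich cells and cells with none therefore largely restate that choice.

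Other genes of smooth muscle fell in part with the 7. Of 22 tested, 8 fell and 1 rose in cycling cells, and 13 did not pass, where 9.87% of all genes tested fell and 8.65% rose. The fall was not limited to muscle genes: of the 10 stromal markers 3 fell and 0 rose, at a median of -0.36. CALD1 fell by 1.10 ± 0.05 on the log2 scale, with 460 and 588 CPM in cycling cells and 915 and 1255 CPM in non-cycling cells of library 1 and library 2. MYLK, the kinase that phosphorylates the myosin regulatory light chain, fell by 1.10 ± 0.06, and PPP1R14A, an inhibitor of the phosphatase that opposes it, by 1.01 ± 0.07. PGM5, a protein of muscle adherens junctions, fell by 1.47 ± 0.36 at under 1 CPM in every class. SMTN (smoothelin), whose protein is a marker of contractile smooth muscle, rose by 0.96 ± 0.08, with 18.9 and 20.8 CPM in cycling cells and 9.50 and 10.1 CPM in non-cycling cells. The median of the list was -0.42. Without the replicate block edgeR called none of the 22, with 9 at an unadjusted p under 0.05, while DESeq2 with the block called 6 lower and 1 higher.

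The widely expressed relatives of the contractile genes did not follow them. Of 15 genes for non-muscle actins, tropomyosins, myosins and actin-binding proteins, edgeR and DESeq2 each called none lower and 1 higher, TPM3, at 0.57 ± 0.05, a call that was lost without the replicate block. Of all genes tested edgeR called 9.87% lower and 8.65% higher, so the calls among these 15 lie near the shares over all genes. At an unadjusted p under 0.05 edgeR had 9 of the 15 lower and 4 higher, at a median log2 fold change of -0.17 over the 15. TPM3 had 401 and 427 CPM in cycling cells, against 259 and 278 CPM in non-cycling cells. ACTG1, the cytoplasmic gamma actin, had 6502 and 6001 CPM in cycling cells, against 5699.9 and 5357 CPM in non-cycling cells. In G2M cells, 8 of the 15 were lower and 5 higher at an unadjusted p under 0.05 in edgeR. Among the lower ones FLNA fell there by 0.49 and MYH9 by 0.34, without passing. Over non-cycling cells the median r of the 15 genes with the summed contractile genes was 0.12 and 0.19 in library 1 and library 2.

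The transcription factor gene SRF had 8.86 and 10.7 CPM in cycling cells, against 9.93 and 10.8 CPM in non-cycling cells. The cofactor gene MRTFA, listed under its older symbol MKL1, had 28.0 and 39.6 CPM in cycling cells, against 34.5 and 45.1 CPM in non-cycling cells, and neither gene passed.

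Of 21 genes of TGF-beta signalling and the myofibroblast matrix, 11 fell in cycling cells and 10 did not pass in edgeR, with the same count in DESeq2. Of all genes tested in edgeR, 9.87% fell. None was called higher, although 3 were higher at an unadjusted p under 0.05. THBS1 fell by 1.11 ± 0.05, with 105 and 111 CPM in cycling cells and 196 and 253 CPM in non-cycling cells. TGFBI, a matrix protein named for its induction by TGF-beta, fell by 0.97 ± 0.13, and CDH11, a cadherin of mesenchymal cells, by 0.76 ± 0.05. The median of the list was -0.52, and without the replicate block 1 of the 21 passed.

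Of 10 pericyte and mural cell genes tested, 6 fell, 1 rose and 3 did not pass, with a median of -0.84, where 9.87% of all genes tested fell. NOTCH3, a receptor of mural cells, fell by 1.75 ± 0.28 but had 0.535 and 0.256 CPM in cycling cells and 0.95 and 1.497 CPM in non-cycling cells. KCNJ8 and ABCC9, which form a potassium channel of pericytes, fell by 1.30 ± 0.13 and 1.30 ± 0.08, and NDUFA4L2 by 0.87 ± 0.11, while CSPG4 (NG2) rose by 0.56 ± 0.08. The summed level of the 12 mural genes found was 226 and 254 CPM in cycling cells and 308 and 337 CPM in non-cycling cells, most of it from CD248 and PDGFRB, which stromal cells also express. RGS5, HIGD1B, MCAM and DES were each under 1 CPM in both classes of both libraries. The part of mural cells in the fall of the contractile genes was not tested, and without the replicate block none of the 10 mural genes passed in edgeR (5 at an unadjusted p under 0.05).

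**Figure D4:**
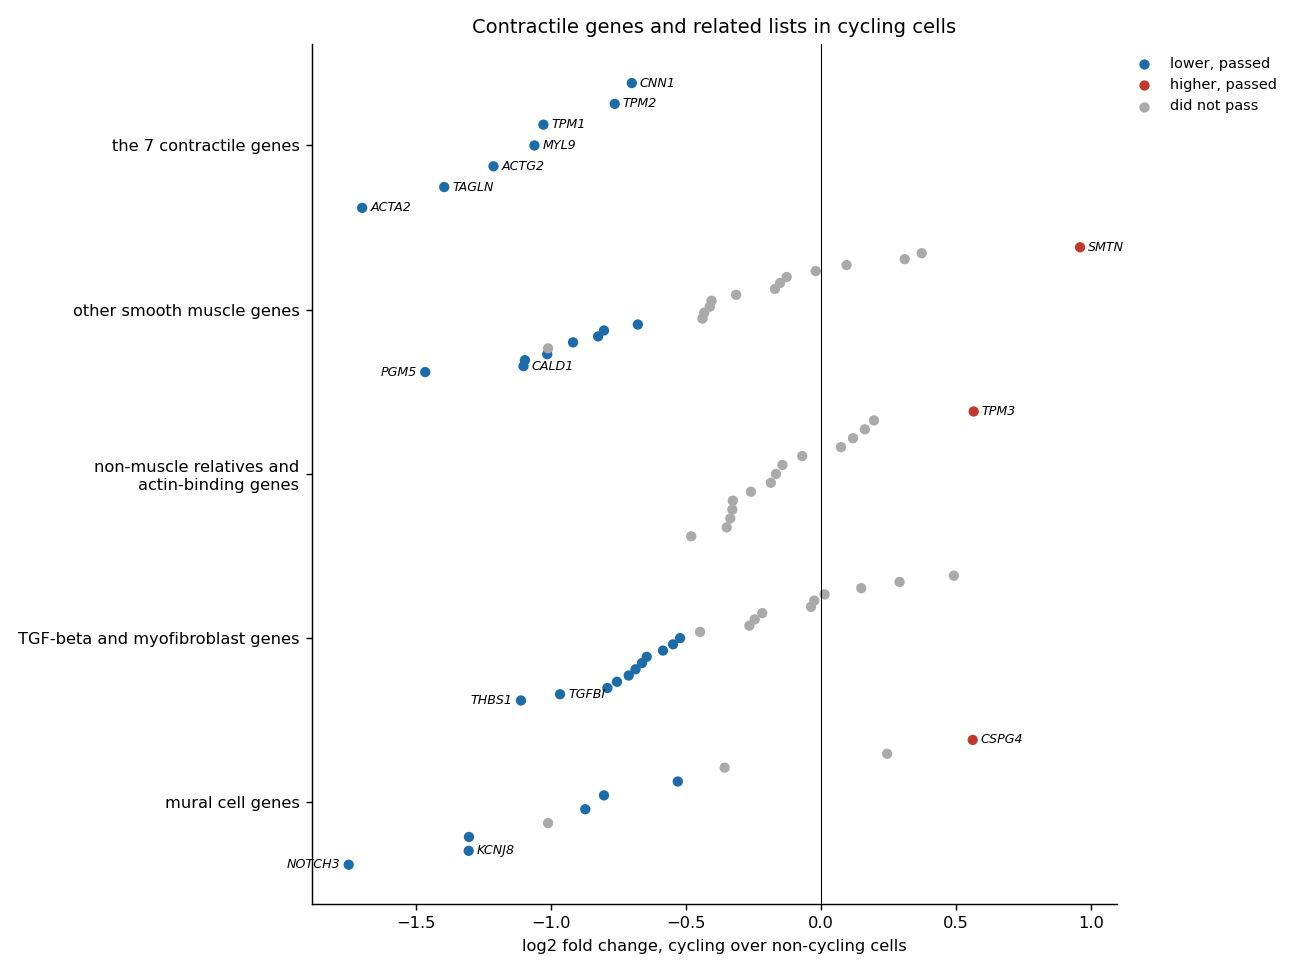
Log2 fold change of cycling over non-cycling cells (x axis) for the 7 contractile genes and the tested genes of 4 related lists (rows). Blue points passed as lower, red points passed as higher and grey points did not pass; up to 2 of the lowest and every higher gene that passed are named. The 7 contractile genes lie between -1.70 and -0.70. The list of non-muscle relatives lies within 0.57 of 0, at a median of -0.17.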

How the data were processed

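The authors deposited, for each library, a matrix of UMI counts in whole numbers with no normalization. The chemistry was 3' v3.1 per the labels' protocols. Per the file headers the counter was Cell Ranger 7.0.0, and the submitters' processing notes give version 7.00 and the build Sscrofa11.1. The annotation and the cell-calling setting were not given there. The libraries held 12251 and 12956 barcodes and 211527905 and 246316928 UMIs.

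Barcodes with at least 1000 genes were kept. Each cell was thinned to 5000 UMIs for classes, shares and correlations, while CPM and tests used full counts summed per library and class. Tests used edgeR 4.0.16 in R 4.3.3 (quasi-likelihood, TMM scaling, filterByExpr, robust), with the library as a replicate block because both classes come from the same libraries. DESeq2 1.42.0 was an alternative. Standard errors are those of the fit. Scrublet (scanpy 1.11.5) marked 0 cells in library 1 and 750 (6.26%) in library 2. It was taken not to have worked in library 1, and no doublets were removed. The test was run on simulated counts with known changes, drawn with the same overdispersion for every gene. Real counts differ in this, so that run does not set how reliable the calls are. Poisson and binomial intervals are exact and cover counting error only.

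The genes and lists were chosen with earlier results of these data known. From each related list up to 4 called genes with the largest change were named, and 10 and 5 named genes at the ends of the co-expression ranking; genes without a symbol of their own were skipped, and other genes given with values are background or were chosen after their values were seen. A gene that these rules name and a list are not reported here. MCM5, TUBB4B, MYL12A, MYL12B, COX4I2 and MYH3 of the lists were not used here.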

Additional observations from a re-analysis of the deposited data

How the results depend on the processing

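All log2 values of the 7 contractile genes stayed negative in cycling, S and G2M cells under each alternative run: 91 values for cycling cells between -1.81 and -0.65, 98 for S cells between -1.86 and -0.36 and 98 for G2M cells between -2.03 and -0.70. This includes the libraries taken singly, which give values with no test and no count of calls. The replicate block moved the counts most. Without it, 354 genes were called in cycling cells (3152 with it), 1196 in S cells (2868), 1323 in G2M cells (3268) and 14 between G2M and S cells (537). The contractile genes called were then 1 in cycling cells (7 with it), 3 in G2M cells (7) and 4 in S cells (6). The DESeq2 test called 2066 genes in cycling cells, and CNN1 failed in cycling and G2M cells with DESeq2 and on thinned counts. ACTG2 failed in S and G2M cells classed at 10000 UMIs (adjusted p = 0.0832 and 0.0518 in edgeR), where CNN1 passed in S cells (0.00655). Between G2M and S cells, where none of the 7 was called, ACTA2 turned to 0.011 without the replicate block, 0.093 classed at 3000 UMIs, 0.011 at 10000 UMIs, 0.14 with at least 5 core genes and 0.050 without the 8% deepest cells. ACTG2 turned to 0.31 on thinned counts, 0.62 with at least 5 core genes and 0.23 without the deepest cells. The share of cells with an ACTA2 UMI followed depth: 7.79%, 12.4% and 16.1% in library 1 and 9.15%, 15.1% and 19.5% in library 2 at 3000 UMIs, 10000 UMIs and unthinned. The median correlation of the 10 pairs in non-cycling cells was 0.34 in library 1 and 0.40 in library 2 by Spearman, and 0.44 and 0.46 at 10000 UMIs. Leaving out the 8% of cells that scored highest as doublets and taking ratios within 4 bands of depth were chosen after seeing the data; the first changed no direction or call of the 7 genes, and within the bands the 5 genes over 50 CPM kept their direction while CNN1 (up to 1.72) and ACTG2 (1.72) had ratios above 1 in some. Except where the alternative itself shows it, the cause was not tested.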
